A study of Homo sapiens with 8 samples.

Results

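EWSR1-FLI1 is the fusion transcription factor that drives most Ewing sarcomas, and 37 genes known as its activated targets were followed in A673/TR/shFEZF1 cells. They were chosen by name, as genes that the fusion switches on in Ewing sarcoma cells, from 34788 genes with summed reads, and 35 of the 37 passed the filter on low counts with 15991 genes in all. The A673 line was grown from an Ewing sarcoma and holds the EWSR1-FLI1 fusion, and TR marks 1 A673 clone that makes the tetracycline repressor at all times. All the cultures carry a doxycycline-inducible shRNA against FEZF1, a neural transcription factor gene that is itself a target of the fusion, and all were grown with blasticidin, puromycin and zeocin. Cells of 4 origins were sequenced: the polyclonal population (labelled bulk) and clones 3, 5 and 6, each of which descends from 1 cell and was picked by the study for strong knockdown. Each origin gave 1 culture without doxycycline (control) and 1 culture with 1 µg/mL doxycycline for 72 h, so n is 4 in each group. In the main model, p-values for doxycycline weigh the change against the spread left among these 8 cultures once differences between origins are taken out. Effects of doxycycline itself and of the shRNA cannot be told apart, since each treated culture received both. The libraries were made from bulk poly(A) RNA, in which fewer cells of a type and less RNA per cell cannot be told apart.

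EWSR1-FLI1 binds DNA through the ETS domain of FLI1, which recognises GGAA. At repeats of GGAA (microsatellites) several fusion molecules can bind side by side, and such repeats act as enhancers of target genes, while isolated GGAA sites serve other targets. Among the targets are transcription factors such as NR0B1 and NKX2-2, surface proteins such as CD99 and STEAP1, and peptide hormones and their receptors, which together give Ewing sarcoma cells much of their particular profile.

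Levels of 1 gene in different cultures were compared as CPM, its read count scaled to the size of each library by the TMM method. Levels of different genes were compared as TPM, the share of transcripts, which takes length into account. A gene is called changed when its p-value from edgeR's quasi-likelihood test, with origin in the model, is under 0.05 after Benjamini-Hochberg adjustment over all 15991 genes. The 8 libraries held between 26719886 and 42422421 assigned reads, of which 89.9% to 91.1% were matched to a gene symbol. FEZF1, the targeted gene, stood at 96.4, 70.5, 107 and 74.4 CPM in the control cultures of the polyclonal population and clones 3, 5 and 6, and at 60.6, 43.0, 60.8 and 36.4 CPM in their doxycycline cultures. Every doxycycline culture was below every control culture, and the log2 fold change was -0.81 ± 0.0726 (SE, n = 4 pairs, edgeR adjusted p = 0.00595). EWSR1, the 5′ partner of the fusion, stood between 146 and 170.2 CPM in controls and between 138 and 169.9 CPM with doxycycline, with a log2 fold change of -0.04 ± 0.0658 (SE, n = 4 pairs, edgeR adjusted p = 0.790). Its value rests on the 53.2% of its reads that were matched to the symbol. Reads of the fusion message were not counted apart, and the EWSR1 value can hold some of them. No value is given for FLI1, since 0.0405% of its reads were matched. Of 4 markers of Ewing sarcoma, CD99, NKX2-2, NR0B1 and STEAP1, all 4 were expressed in every culture. Of 10 markers of other cells, MYOD1 and MYOG (muscle) were at 0 in all 8 libraries and PTPRC (leukocytes) was at most 0.0804 CPM. Reads of the endothelial CDH5 could not be matched to the symbol and were not used here. PECAM1, an endothelial adhesion molecule read on 70.4% of its reads, was low, at 0.380, 0.378, 0.363 and 0.322 CPM in the controls and 0.583, 0.843, 0.830 and 0.463 CPM with doxycycline, and all its doxycycline cultures were above all its controls (log2 fold change 0.89 ± 0.288, SE, n = 4 pairs, edgeR adjusted p = 0.107).

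The hg38 sequence around 1 start site per member was searched for GGAA repeats. A repeat was at least 4 GGAA units in an unbroken row on either strand, with runs at most 20 bases apart merged. A start site was found in the promoter set used here for 29 members. GLI1, VRK1, PPP1R1A, KCNAB3, MYC, ADRB3, PDGFC and CALCB had none there, though RefSeq (GRCh38.p14) gives positions for these genes. For some members, such as LOXHD1, LIPI and NPY1R, the start site used lies inside the RefSeq span of the gene. The distances depend on the start site used. A repeat lay within 10 kb of the start site of 12 of the 29 (41.4%), against 6.81% of 12375 tested genes with a start site, and within 100 kb of 22 (75.9%), against 54.3%. These shares are a description of genes picked as targets of a GGAA-binding factor. In the 300 bases around the start site, from 250 before to 50 after, GGAAGGAA on either strand was found in 3.45% of the members and in 3.58% of all 27195 promoters. The 12 members with a repeat within 10 kb were NR0B1, STEAP2, LIPI, CAV1, GSTM4, FCGRT, FATE1, CCK, RBM11, UGT3A2, PAX7 and IL1RAP. The repeats shown here are those near members whose message changed with doxycycline, beside that of FEZF1. Where a gene has more than 1 within 10 kb, the repeat with the longest unbroken row is shown, and for CCK the nearest as well. Every GGAA is in capitals, with 20 bases on each side of the repeat, written 5′ to 3′ on the strand that carries GGAA:
NR0B1 (chrX:30310738-30310879, minus strand): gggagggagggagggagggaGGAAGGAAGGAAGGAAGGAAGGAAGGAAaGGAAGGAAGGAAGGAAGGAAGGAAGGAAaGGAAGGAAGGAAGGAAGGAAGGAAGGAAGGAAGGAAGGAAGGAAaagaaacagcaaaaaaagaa
CCK, nearest of 3 (chr3:42266507-42266590, minus strand): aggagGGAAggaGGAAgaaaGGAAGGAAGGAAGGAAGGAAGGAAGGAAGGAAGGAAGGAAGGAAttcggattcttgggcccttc
CCK, farthest of 3 (chr3:42266817-42266908, minus strand): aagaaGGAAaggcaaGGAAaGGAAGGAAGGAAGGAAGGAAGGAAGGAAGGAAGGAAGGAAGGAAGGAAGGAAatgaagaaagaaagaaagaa
GSTM4 (chr1:109654216-109654328, plus strand): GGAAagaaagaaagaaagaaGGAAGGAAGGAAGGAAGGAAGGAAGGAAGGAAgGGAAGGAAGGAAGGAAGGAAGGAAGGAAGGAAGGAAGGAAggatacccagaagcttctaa
FCGRT (chr19:49511487-49511574, plus strand): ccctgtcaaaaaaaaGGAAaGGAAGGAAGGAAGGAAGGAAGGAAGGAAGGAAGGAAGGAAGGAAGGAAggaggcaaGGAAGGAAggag
IL1RAP (chr3:190522271-190522362, minus strand): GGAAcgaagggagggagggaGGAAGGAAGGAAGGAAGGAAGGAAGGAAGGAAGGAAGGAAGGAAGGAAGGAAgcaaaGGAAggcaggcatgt
UGT3A2 (chr5:36068919-36069002, plus strand): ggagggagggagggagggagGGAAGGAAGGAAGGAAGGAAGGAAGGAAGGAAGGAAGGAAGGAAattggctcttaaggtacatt
LIPI and RBM11 (chr21:14213272-14213355, minus strand): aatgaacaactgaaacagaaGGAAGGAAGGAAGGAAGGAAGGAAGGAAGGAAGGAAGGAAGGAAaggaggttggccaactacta
FEZF1 (chr7:122303453-122303556, plus strand): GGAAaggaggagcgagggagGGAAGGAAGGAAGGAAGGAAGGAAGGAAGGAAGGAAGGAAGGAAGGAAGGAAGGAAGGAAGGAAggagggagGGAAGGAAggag
The NR0B1 repeat shown lies 1.37 kb upstream of the start site, between genes, and holds 25 GGAA units in 102 bases, of which 11 follow each other unbroken, and a further repeat of 4 units lies 8.28 kb downstream. CCK has 3 repeats at 0.342, 0.496 and 0.652 kb upstream, all between genes and with 11, 14 and 13 units. Those of GSTM4 (18 units, 1.79 kb upstream) and of LIPI and RBM11 are also between genes, and the last is 1 repeat of 11 units that lies between the start sites of the 2 genes, 6.34 kb from that of LIPI and 2.82 kb from that of RBM11. The repeats shown for FCGRT (12 units, 1.11 kb upstream) and UGT3A2 (11 units, 2.06 kb upstream) lie before the RefSeq start site but inside an intron of a longer GENCODE transcript of the same gene. FCGRT has 3 repeats within 10 kb, the others being of 8 units at 1.04 kb upstream and of 5 units at 4.88 kb downstream. The IL1RAP repeat (13 units) is in an intron 8.21 kb downstream of the start site. The FEZF1 repeat shown (16 units) is in an intron 1.21 kb downstream of its start site, and a further one of 5 units lies 1.154 kb downstream. The letters are those of the reference genome, and the repeat lengths that A673 cells carry were not measured here.

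In these cells the members were mostly abundant. Their median level was 80.4 TPM, against 10.1 TPM for all genes tested, and 30 of the 35 lay above that median. The highest was CD99, the surface glycoprotein used to diagnose Ewing sarcoma, at 2589 TPM ± 846 (SD, n = 8 cultures). CAV1, the caveolin that coats membrane pits, had 1006 TPM ± 101, ITM2A, an integral membrane protein, 922 TPM ± 262, and UGT3A2, a UDP-glycosyltransferase, 894 TPM ± 195. These 3 levels differed by less than the spread of ITM2A between cultures, while CD99 in its lowest culture, at 1387 TPM, was above all of their values in any culture. RBM11, an RNA-binding splicing regulator, followed with 400.0 TPM ± 51.8, from the 75.2% of its reads that were matched. At the low end stood PAX7, a transcription factor of muscle stem cells, with 3.72 TPM ± 1.52, KCNAB3, a potassium channel subunit, with 4.20 TPM ± 1.55, and TERT, the catalytic subunit of telomerase, with 4.48 TPM (1.74 to 7.32 over the 8 cultures). PDGFC, a platelet-derived growth factor, had 5.55 TPM ± 2.82 and GLI1, the transcription factor at the end of the hedgehog pathway, 6.04 TPM ± 2.35. Those 5 did not differ beyond their spread, and the values of KCNAB3 and PDGFC rest on 40.4% and 28.3% of their reads. FATE1, a testis antigen, was at most 0.145 CPM in any culture, and PTPN13, a tyrosine phosphatase, was at most 0.0506 CPM, so neither was tested. Repeats of 12 and 15 units lie 1.24 kb upstream and 2.08 kb downstream of the start site of FATE1.

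**Figure D1:**
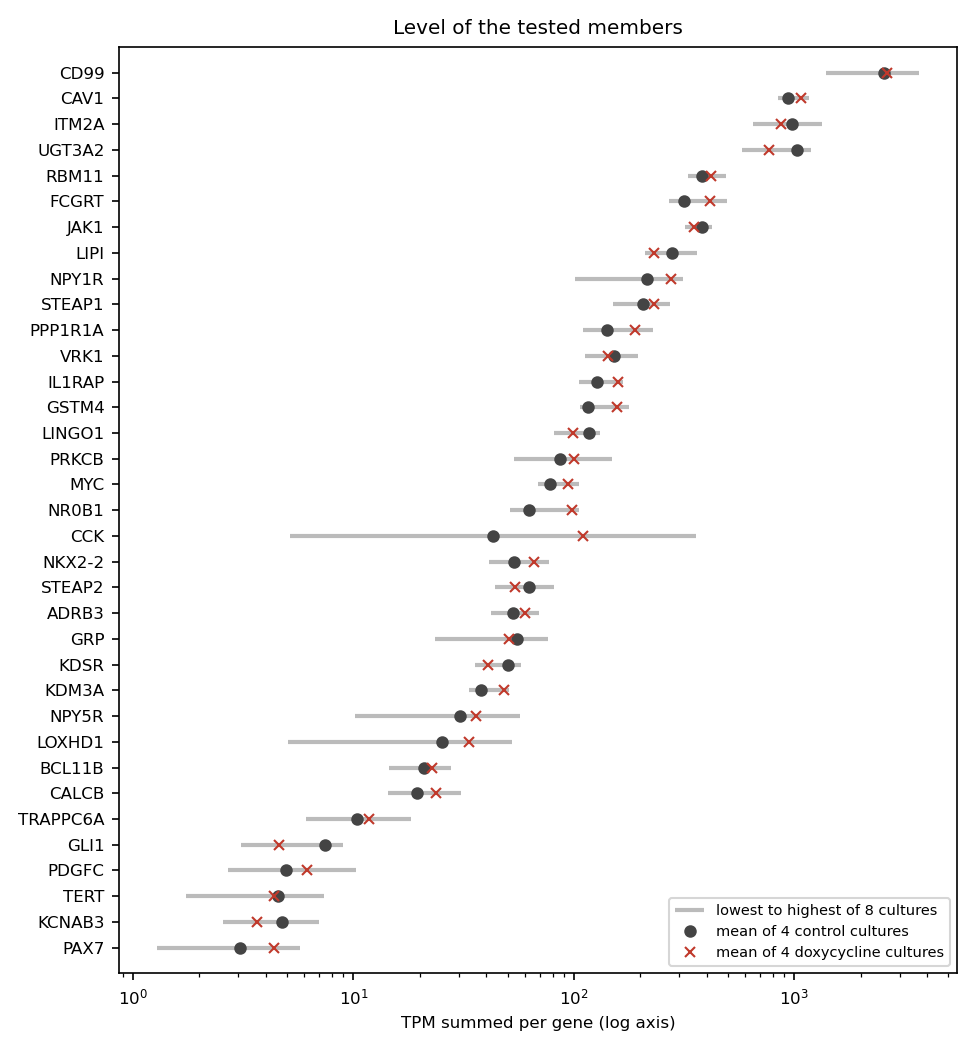
Level of the 35 tested members in TPM on a log axis. Grey bars run from the lowest to the highest of 8 cultures, dots are the means of 4 control cultures and crosses those of 4 doxycycline cultures. CD99 is highest and PAX7 lowest, and CCK has the widest bar.

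With doxycycline, 15 of the 35 tested members changed, 11 of them upward and 4 downward, while FEZF1 fell. Over all genes 7.62% were called, 3.72% higher and 3.9% lower. The members were more abundant, with a median log2 CPM of 7.07 against 4.18 over all genes tested, and the shares were not matched for level. NR0B1, CCK, LOXHD1, GSTM4, NPY1R, FCGRT, PPP1R1A, KDM3A, IL1RAP, NKX2-2 and MYC rose, and GLI1, UGT3A2, LIPI and KDSR fell. The median log2 fold change of the members was 0.16, against 0.004 over all genes tested, and it was positive in each pair, between 0.11 in clone 3 and 0.20 in clone 5. In all 4 pairs 18 members were higher and 7 lower with doxycycline, against 17.3% and 15.9% of all genes. The 6 tested markers of other cells (COL1A1, COL3A1, KRT18, EPCAM, PECAM1 and CD68) moved the same way, all 6 with a positive log2 fold change, a median of 0.38, and 5 of them higher in all 4 pairs, and their part in the members' results was not tested. NR0B1 and KDM3A are also on a list that the study made from these same libraries, so their calls are not independent of how the members came to attention. The calls depended on the pairing. With origin left out of the model edgeR called 0 members and 1 gene in all (0.00625%). At an unadjusted p under 0.05 that edgeR fit had 8 members and 1155 genes. DESeq2 without origin called 2 members, NR0B1 and GSTM4, against 231 of 15991 genes. DESeq2 with origin called 20 members, against 12.0% of all genes. With at least 10 counts required in every library, 16 members were called, against 12.4% of all genes. Leaving out the pair of the polyclonal population, clone 3, clone 5 or clone 6 left 8, 7, 2 and 2 members called. Over all genes tested the counts were 699 of 15733, 461 of 15943, 175 of 15997 and 230 of 16434 in the same order.

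**Figure D2:**
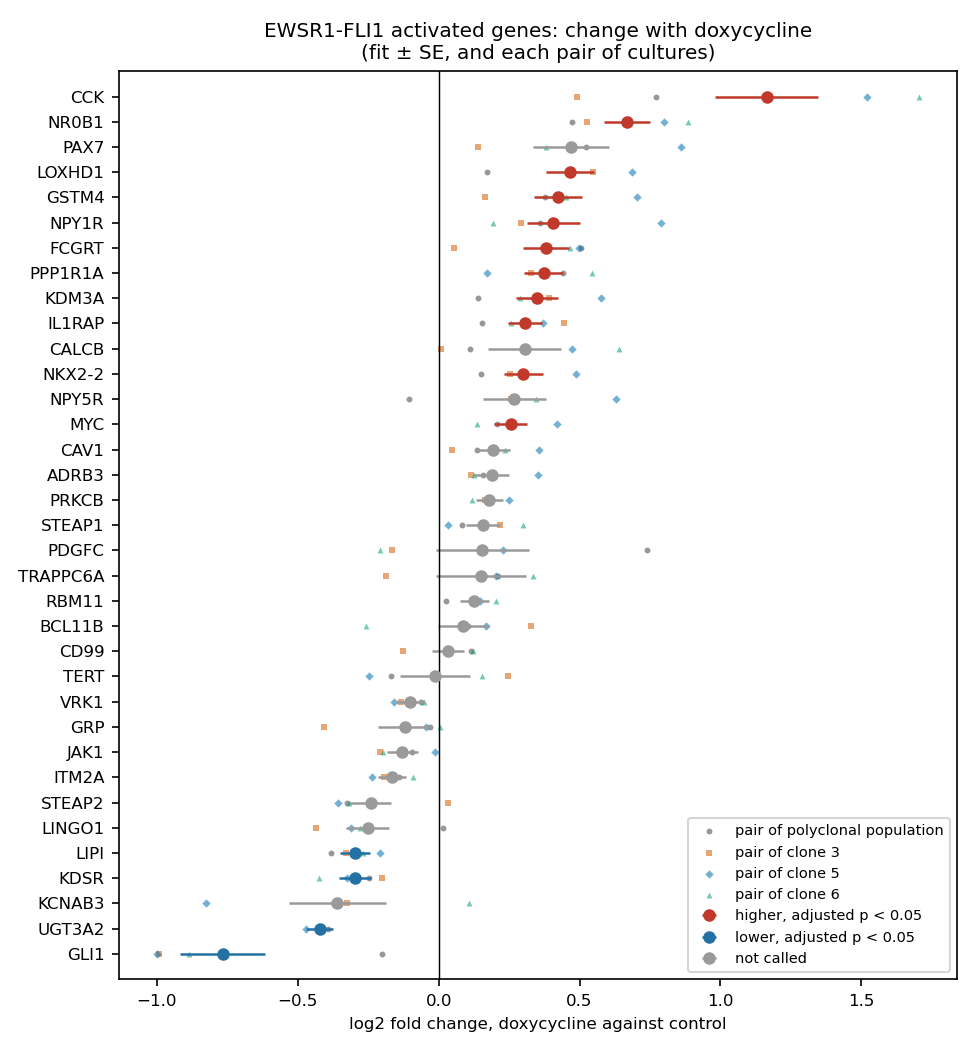
Log2 fold change of the 35 tested members, doxycycline against control, with origin in the model (large dots, bars are ± SE), and the log2 ratio of each pair of cultures (small symbols). Members called higher are red and those called lower blue. CCK (1.16) and NR0B1 (0.67) lie farthest to the right and GLI1 (-0.77) farthest to the left.

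Transcription and chromatin genes held 7 members, of which 4 rose and 1 fell. NR0B1 (chrX:30304206-30309390), an orphan nuclear receptor and corepressor that Ewing sarcoma cells need to grow, stood at 68.0, 71.5, 58.5 and 54.4 CPM in the controls of the polyclonal population and clones 3, 5 and 6, and at 94.3, 103, 102 and 100.4 CPM with doxycycline. All 4 doxycycline cultures were above all 4 controls. The log2 fold change was 0.67 ± 0.0814 (SE, n = 4 pairs, edgeR adjusted p = 0.00746). KDM3A (chr2:86437044-86492716), a histone H3 lysine 9 demethylase, went from 106, 102, 94.8 and 117 CPM to 117, 134, 141 and 142 CPM. The groups did not overlap, but only barely, since the polyclonal culture with doxycycline and the clone 6 control had nearly the same value, and the log2 fold change was 0.35 ± 0.0749 (SE, n = 4 pairs, edgeR adjusted p = 0.0358). NKX2-2 (chr20:21511017-21522689), a homeobox repressor of neural development, went from 79.5, 49.9, 63.4 and 65.9 CPM to 88.3, 59.5, 88.9 and 81.6 CPM. It was higher in each pair, but clone 3 with doxycycline was below 3 of the 4 controls, and the log2 fold change was 0.30 ± 0.0684 (SE, n = 4 pairs, edgeR adjusted p = 0.0414).

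MYC (chr8:127735434-127742951), the growth-promoting transcription factor, went from 181, 186, 182 and 162 CPM to 209, 222, 243 and 178 CPM. Clone 6 with doxycycline remained below 3 of the controls, and the log2 fold change was 0.26 ± 0.0597 (SE, n = 4 pairs, edgeR adjusted p = 0.0442). GLI1 (chr12:57459785-57472268) moved the other way, from 18.2, 13.1, 19.8 and 13.7 CPM to 15.9, 6.57, 9.86 and 7.36 CPM. The fall was small in the polyclonal population and larger in the 3 clones, the polyclonal culture with doxycycline stayed above 2 of the controls, and the log2 fold change was -0.77 ± 0.151 (SE, n = 4 pairs, edgeR adjusted p = 0.0269). PAX7 was higher in each of the 4 pairs without reaching the threshold, at 0.47 ± 0.135 (log2 fold change ± SE, n = 4 pairs, edgeR adjusted p = 0.0771). BCL11B, a zinc finger repressor, was at 0.09 (edgeR adjusted p = 0.611).

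Of 4 secreted ligands 1 rose. CCK (chr3:42257826-42266185), the precursor of the gut and brain peptide cholecystokinin, stood at 13.8, 2.17, 53.8 and 2.61 CPM in the controls and at 23.7, 3.08, 154 and 8.67 CPM with doxycycline. It was higher in each pair, while its groups overlapped widely, with clone 5 high and clones 3 and 6 low in both. The log2 fold change was 1.16 ± 0.184 (SE, n = 4 pairs, edgeR adjusted p = 0.0158), the largest size of any tested member. CALCB, the precursor of a calcitonin gene-related peptide, GRP, gastrin-releasing peptide, and PDGFC lay between -0.12 and 0.31 on the log2 scale with none called.

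Of 5 receptors 2 rose. NPY1R (chr4:163323962-163344689), a receptor for neuropeptide Y, went from 355, 390.2, 168 and 473 CPM to 455, 477, 291 and 541 CPM. Clone 5 was lowest both without and with doxycycline, and its pair moved most. The log2 fold change was 0.41 ± 0.0940 (SE, n = 4 pairs, edgeR adjusted p = 0.0433). IL1RAP (chr3:190514085-190659750), the shared chain of the interleukin-1 receptors, went from 333, 252, 299.7 and 341 CPM to 370.2, 343, 388 and 408 CPM. Its 4 doxycycline cultures were above its 4 controls, but only barely. Clone 3 with doxycycline (343 CPM) and the clone 6 control (341 CPM) had nearly the same value. The log2 fold change of IL1RAP was 0.31 ± 0.0606 (SE, n = 4 pairs, edgeR adjusted p = 0.0273). NPY5R, a further neuropeptide Y receptor that overlaps NPY1R at its start on the opposite strand, had a log2 fold change of 0.27 ± 0.111 (SE, n = 4 pairs, edgeR adjusted p = 0.185). Without a stated strand setting, reads where the 2 genes overlap cannot be assigned to either with certainty. ADRB3, a beta-adrenergic receptor, and LINGO1, a neuronal receptor subunit, stood at 0.19 and -0.25 on the log2 scale with adjusted p of 0.109 and 0.0859 (edgeR).

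Of the 5 kinases, phosphatases and their regulators 4 were tested and 1 rose. PPP1R1A (chr12:54579246-54588659), an inhibitor of protein phosphatase 1, went from 130.0, 89.9, 112 and 132 CPM to 177, 113, 127 and 193 CPM. It was higher in each pair and most of all in clone 6, and the log2 fold change was 0.37 ± 0.0688 (SE, n = 4 pairs, edgeR adjusted p = 0.0229). PRKCB, protein kinase C beta, was higher in each pair at 0.18 (edgeR adjusted p = 0.0653), and JAK1, a cytokine receptor kinase, and VRK1, a nuclear kinase, were lower in each pair at -0.13 and -0.10 with adjusted p of 0.189 and 0.259 (edgeR).

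Enzymes of metabolism and telomeres held 3 of the 4 members that fell. UGT3A2 (chr5:36035021-36066882) went from 1349.6, 1379, 1084 and 1656 CPM to 1028, 1035, 783 and 1242 CPM. The 4 pairs moved by nearly the same ratio, though clone 6 with doxycycline was still above the clone 5 control, and the log2 fold change was -0.42 ± 0.0465 (SE, n = 4 pairs, edgeR adjusted p = 0.00667). LIPI (chr21:14108812-14210955), a membrane-bound lipase of the phosphatidic acid-selective family, went from 203, 202, 192 and 302 CPM to 156, 161, 166 and 251 CPM. It was lower in each pair, clone 6 included, with a log2 fold change of -0.30 ± 0.0519 (SE, n = 4 pairs, edgeR adjusted p = 0.0203). Clone 6 was the highest in both groups, and among the other origins every doxycycline culture lay below every control. KDSR (chr18:63327726-63367206), a reductase of sphingolipid synthesis, went from 166, 121, 155 and 178 CPM to 139.6, 105, 124 and 133 CPM. Clone 3 was lowest in both groups and the log2 fold change was -0.30 ± 0.0564 (SE, n = 4 pairs, edgeR adjusted p = 0.0244). GSTM4 (chr1:109656099-109667727), a glutathione transferase, moved upward, from 92.9, 89.1, 83.3 and 85.0 CPM to 121, 99.9, 136 and 116 CPM. Its groups did not overlap and the log2 fold change was 0.42 ± 0.0852 (SE, n = 4 pairs, edgeR adjusted p = 0.0291), with the limit that GSTM4 has near-identical family members whose reads the counting could split. TERT moved in no common direction, being higher in 2 pairs and lower in 2, at -0.01 ± 0.124 (log2 fold change ± SE, n = 4 pairs, edgeR adjusted p = 0.964).

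Membrane and trafficking proteins held 9 members, of which 8 were tested and 1 changed. FCGRT (chr19:49512661-49526428), the receptor that recycles IgG and albumin, went from 280.4, 229, 283 and 271 CPM to 398, 237, 399 and 374 CPM. The rise was plain in 3 origins and slight in clone 3, where both cultures were below every other culture, and the log2 fold change was 0.38 ± 0.0820 (SE, n = 4 pairs, edgeR adjusted p = 0.0363). CD99 stood at 1566, 874, 1484 and 2173 CPM in the controls and at 1697, 801, 1506 and 2367 CPM with doxycycline, a log2 fold change of 0.03 ± 0.0577 (SE, n = 4 pairs, edgeR adjusted p = 0.777). CAV1 and the surface protein STEAP1 were higher in each pair at 0.19 and 0.16 (edgeR adjusted p = 0.0984 and 0.160), and ITM2A was lower in each pair at -0.17 (edgeR adjusted p = 0.0873). STEAP2, a metalloreductase, was lower in 3 of 4 pairs at -0.24 (edgeR adjusted p = 0.0910). KCNAB3 and TRAPPC6A, a subunit of a trafficking complex, were at -0.36 and 0.15 on few reads (edgeR adjusted p = 0.248 and 0.625). Reads of STEAP1 could be shared with its near-identical relatives.

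The last 2 members fall under none of these roles. LOXHD1 (chr18:46476961-46657220), a protein of inner ear hair cells built of lipid-binding repeats, went from 135, 17.4, 105 and 59.8 CPM to 152, 25.4, 168 and 83.1 CPM. It was higher in each pair, its groups overlapped, with clone 3 lowest in both, and the log2 fold change was 0.47 ± 0.0861 (SE, n = 4 pairs, edgeR adjusted p = 0.0229). Its values rest on the 79.2% of its reads that were matched. RBM11 was higher in each pair at 0.13 without reaching the threshold (edgeR adjusted p = 0.180). LIPI, with which it shares a repeat, fell.

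**Figure D3:**
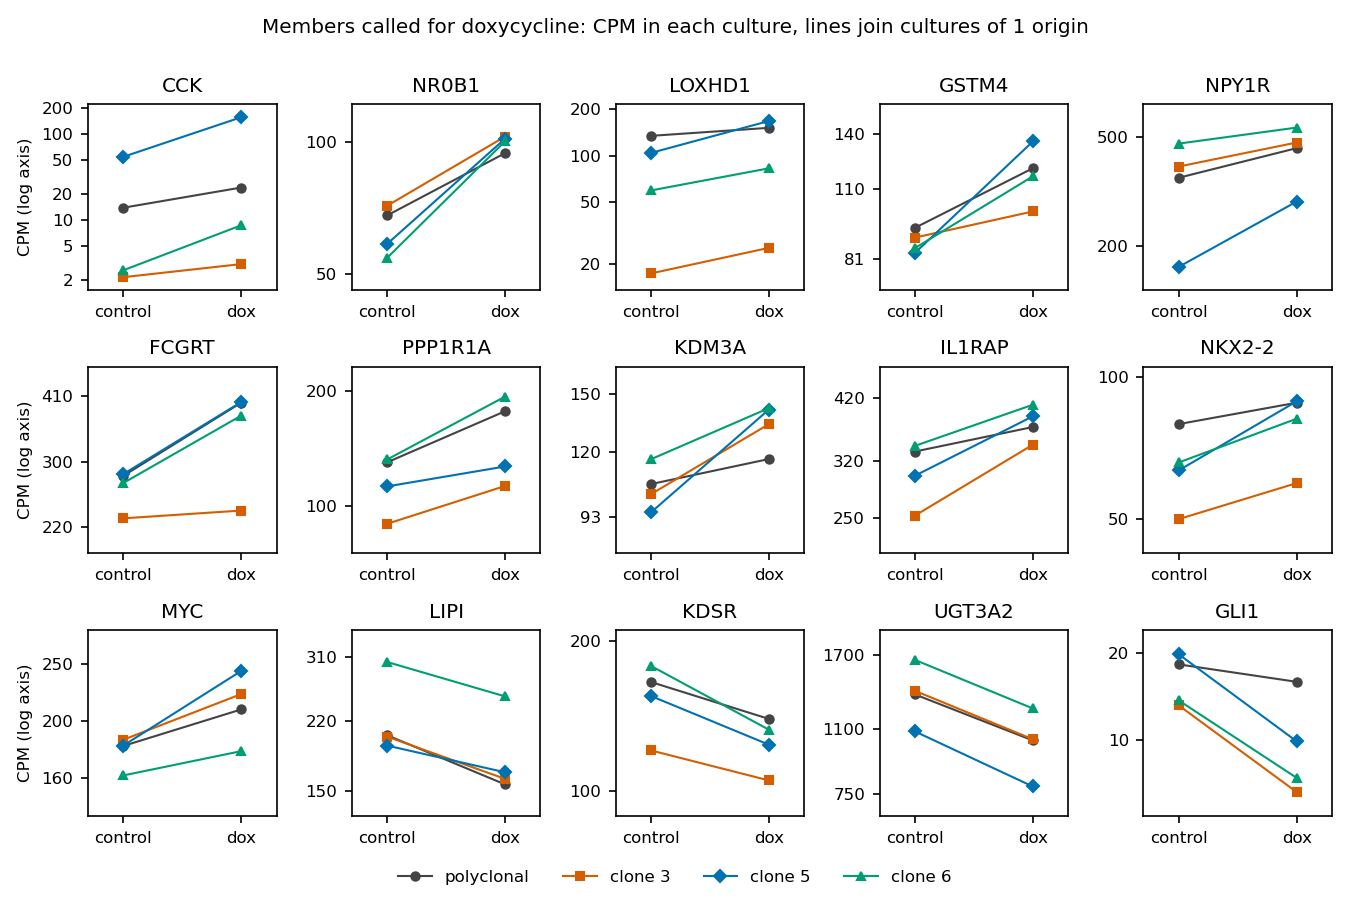
CPM (log axis, its range set for each gene) of the 15 members called for doxycycline in each control and doxycycline culture, with a line joining the 2 cultures of 1 origin. All lines rise in the first 11 panels and fall in the last 4, while the height of the lines differs between origins.

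NR0B1, GSTM4, IL1RAP and KDM3A were the 4 members with all doxycycline cultures above all controls, and 0 members had all of them below, whereas 4.95% of all genes had groups that did not overlap in either direction. NR0B1 and UGT3A2 were called after each of the 4 pairs was left out in turn, with edgeR adjusted p between 0.0151 and 0.0469 for NR0B1 and between 0.0219 and 0.0396 for UGT3A2. NKX2-2, LIPI, PPP1R1A, NPY1R and MYC lost the call whichever pair was left out, with edgeR adjusted p between 0.0528 at the lowest for PPP1R1A and 0.222 at the highest for MYC. CCK held it without the polyclonal population or clone 3 and lost it without clone 5 or clone 6 (highest edgeR adjusted p = 0.110). GSTM4, FCGRT and KDSR held it without clone 3 alone (highest edgeR adjusted p = 0.123, 0.169 and 0.102), and GLI1, LOXHD1, IL1RAP and KDM3A without the polyclonal population alone (highest edgeR adjusted p = 0.116, 0.121, 0.154 and 0.162). These 15 kept their direction in each of the 12 alternative settings. When curated transcripts alone were summed, 6 of them were called: NR0B1, LIPI, PPP1R1A, CCK, KDSR and UGT3A2. Over all genes 493 of 14963 were called in that setting.

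Members with a repeat nearby moved in both directions. Of the 11 tested members with a GGAA repeat within 10 kb, 5 rose (NR0B1, GSTM4, FCGRT, CCK and IL1RAP) and 2 fell (LIPI and UGT3A2), while of all 843 tested genes with such a repeat 7.59% rose and 4.27% fell. Of the 16 tested members with a start site and no repeat within 10 kb, 4 rose and 1 fell, against 3.58% and 3.96% of the 11532 tested genes of that kind. Of the 8 without a listed start site 2 rose and 1 fell. No test of the difference was made between these groups.

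The members' levels also differed between origins. For 27 of the 35 tested members the level differed between the polyclonal population and clones 3, 5 and 6 (edgeR's quasi-likelihood F test in the same model, adjusted p under 0.05), against 39.4% of all genes tested. The test measures the spread between origins against what is left within them after treatment, and each origin is represented by 2 cultures. The median range between the highest and the lowest origin mean was 0.67 on the log2 scale for the members and 0.57 over all genes. The members were also more abundant, with a median log2 CPM of 7.07 against 4.18 over all genes tested. With at least 10 counts required in every library, 29 members were called for origin, against 6545 of 13593 genes. Without the treatment term, 12 members were called, against 2840 of 15991 genes. Of the 15 members called for doxycycline, 10 were also called for origin.

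CCK varied most. Its mean was 18.8 CPM in the polyclonal population, 2.63 CPM in clone 3, 104 CPM in clone 5 and 5.64 CPM in clone 6, a 39.6-fold range (edgeR adjusted p = 8.72e-05). LOXHD1, on 79.2% of its reads, followed with 143, 21.4, 136 and 71.5 CPM in the same order, a 6.69-fold range (edgeR adjusted p = 8.4e-05). Clone 3 was the lowest for both genes. NPY5R (37.4, 42.1, 15.5 and 63.0 CPM) and GRP (25.8, 20.1, 10.1 and 33.3 CPM) were lowest in clone 5 and highest in clone 6, with ranges of 4.07-fold and 3.30-fold (edgeR adjusted p = 0.000866 and 0.000731). NPY1R had the same order of origins as NPY5R, at 405, 434, 229 and 507 CPM (edgeR adjusted p = 0.00313). TERT ran the other way, with its lowest mean in clone 6, 4.51 CPM, and its highest in clone 5, a 3.55-fold range (edgeR adjusted p = 0.00196). CD99 ranged 2.71-fold, from 838 CPM in clone 3 to 2270.2 CPM in clone 6 (edgeR adjusted p = 0.000264).

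At the other end, GSTM4, KDM3A, NR0B1, JAK1 and MYC had the smallest ranges of the tested members, between 0.17 and 0.31 on the log2 scale, and none of them was called for origin. NR0B1 lay between 77.4 CPM in clone 6 and 87.2 CPM in clone 3, 1.13-fold apart, with an edgeR adjusted p of 0.427. GSTM4, KDM3A, JAK1 and MYC had edgeR adjusted p of 0.520, 0.372, 0.0859 and 0.0672. Of these 5 genes, NR0B1, GSTM4, KDM3A and MYC were called for doxycycline.

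Among the 27 members called for origin, clone 6 was the highest for 13 and the polyclonal population for 8, while clone 3 was the lowest for 16 and clone 5 for 9. The polyclonal population was the lowest for 0 of them. These counts were not made over all genes called for origin, so they are not shown to be particular to the members. Clone 3 also stood apart in COL1A1 and COL3A1, the chains of fibrillar collagens, with means of 1312 and 1189 CPM there, against 235 to 450.0 CPM and 167 to 525 CPM in the other origins. LUM, a proteoglycan of the collagen matrix, went the other way and was lowest in clone 3, at 0.494 CPM against 1.56 to 2.21 CPM. The summed level of the 10 markers of other cells was between 414 and 2712 CPM in controls and between 618 and 2671 CPM with doxycycline, with both highest values in clone 3. Without COL1A1, COL3A1 and KRT18 the sum was between 4.62 and 12.5 CPM in any culture. Of the 6 markers tested, 4 were higher at an unadjusted p under 0.05 and DESeq2 with origin called 2. EdgeR called 1 of them, KRT18, an epithelial keratin, which went from 83.6, 165, 79.1 and 129 CPM to 118, 193, 133 and 194 CPM (log2 fold change 0.52 ± 0.0828, SE, n = 4 pairs, edgeR adjusted p = 0.0161). EPCAM, an epithelial adhesion molecule, just missed the threshold, going from 0.101, 0.0315, 1.74 and 0.121 CPM to 0.553, 0.465, 2.92 and 0.925 CPM (log2 fold change 1.90 ± 0.467, SE, n = 4 pairs, edgeR adjusted p = 0.0501).

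**Figure D4:**
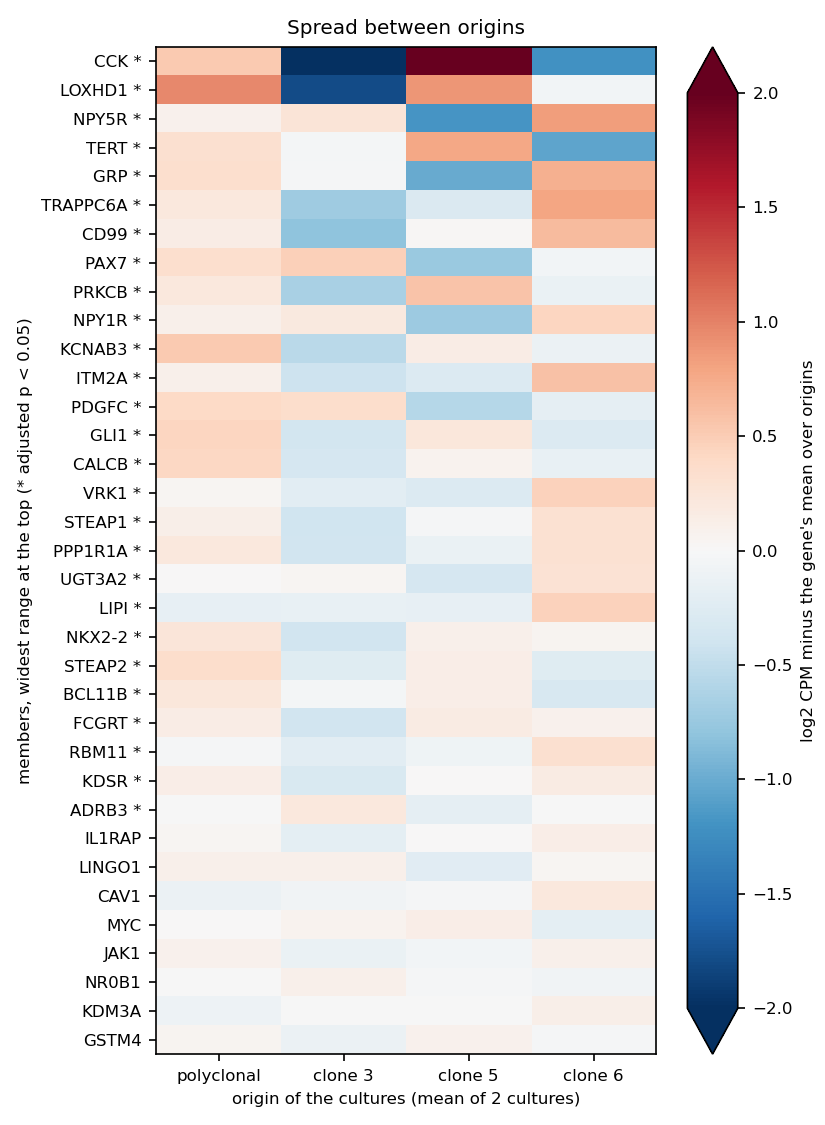
Log2 of the mean CPM of each tested member in each origin (2 cultures), minus the mean of these values over the 4 origins. Members with the widest range of mean log2 CPM are at the top, with a star where edgeR called a difference. Red is above and blue below the gene's mean, and the colour scale ends at ± 2. CCK and LOXHD1 are lowest in clone 3, and NR0B1, KDM3A and GSTM4 near the bottom are pale throughout.

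Other genes of the EWSR1-FLI1 programme were read from other lists in the same fit. Of 17 tested partners and cofactors of the fusion, 0 rose by edgeR (0 at an unadjusted p under 0.05, 0 by DESeq2 with origin) and 1 fell, CTCF, the insulator protein, at -0.27 ± 0.0592 (log2 fold change ± SE, n = 4 pairs, edgeR adjusted p = 0.0384), on 74.9% of its reads. The values of HDAC2, STAG2 and ETV6 on that list rest on 17.3%, 22.9% and 65.8% of their reads. Of 17 further activated genes, with FEZF1 and with UPP1 (on 50.9% of its reads) included, 1 rose and 2 fell. EGR2, a zinc finger factor, rose from 17.5, 21.6, 17.1 and 14.6 CPM to 25.9, 31.2, 33.8 and 22.6 CPM (log2 fold change 0.68 ± 0.0955, SE, n = 4 pairs, edgeR adjusted p = 0.0114). Its doxycycline cultures were all above its controls. APCDD1, a Wnt inhibitor, fell beside FEZF1 at -0.29 ± 0.0568 (log2 fold change ± SE, n = 4 pairs, edgeR adjusted p = 0.0255).

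Of 15 tested genes that the fusion represses, TNC (on 0.598% of its reads) and FOXO3 (on 37.5%) included, 3 fell and 0 rose by edgeR (1 at an unadjusted p under 0.05, 0 by DESeq2 with origin). NT5E, the ectonucleotidase CD73, went from 27.3, 129, 9.69 and 24.2 CPM to 19.4, 92.7, 7.70 and 16.6 CPM (log2 fold change -0.47 ± 0.0666, SE, n = 4 pairs, edgeR adjusted p = 0.0116). Clone 3 held several times the NT5E message of any other origin. CDKN1A, the cell cycle inhibitor p21, and TGFBR2, a receptor for transforming growth factor beta, fell by 0.41 and 0.28 on the log2 scale (edgeR adjusted p = 0.0180 and 0.0403), TGFBR2 on 58.2% of its reads. DKK1 was at 0 in all 8 libraries. A further list holds 89 transcription regulators that were lower after EWSR1-FLI1 knockdown in other libraries of the study. FEZF1 and 7 members (NR0B1, IL1RAP, NKX2-2, GLI1, PRKCB, BCL11B and PAX7) are on it and were left out here. Of the remaining 81 genes 78 were tested, 5 rose and 15 fell, and their median log2 fold change was -0.002. With the 8 left out added back, 8 rose and 17 fell of 86 tested. SYK, SALL2 and FZD1 had the smallest p-values of the 78 and fell, with log2 fold changes of -1.41, -0.60 and -0.43 (edgeR adjusted p = 0.00595, 0.00636 and 0.00731). Of the members, 11 rose and 4 fell, and no test was made between these lists.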

How the data were processed

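RNA of 8 A673/TR/shFEZF1 cultures was sequenced (TruSeq stranded mRNA). The authors ran Salmon against GRCh38 transcripts, and the deposited file of each library gives 158867 transcripts with effective lengths, TPM and estimated counts. They also deposited a DESeq2 table (version 2.11.40.6 in the submitters' processing notes) whose mean column, a signal of normalized counts over the 8 libraries, served here to see what share of a gene's reads was matched. Its fold changes and p-values were not used. The control of clone 5 lists transcripts in another order and writes its numbers in another format (fixed decimals), and was joined by name. Whether it came from another Salmon run is not given in the sources used here. The strand setting of the counting is not given in the sources used here.

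Estimated counts were summed per RefSeq symbol by accession without version, rounded to whole numbers, filtered with filterByExpr (minimum count 10), scaled by TMM and tested with edgeR 4.0.16 in R 4.3.3 (quasi-likelihood test, origin and treatment in the model, Benjamini-Hochberg adjustment, threshold 0.05). Alternatives were no replicate block, DESeq2 1.42.0 with and without origin, its size factors in edgeR, an effective length offset, filters at 1 count in any or 10 counts in every library, curated transcripts alone, no treatment term and leaving out each pair. TPM as deposited were summed for levels and not tested. Control and doxycycline cultures of 1 origin come from the same cells, and the deviations of log2 CPM (prior count 2) from the group means correlated by 0.406, 0.546, 0.590 and 0.582 for the polyclonal population and clones 3, 5 and 6, against -0.395 to 0.179 between origins. In simulated data 200 genes were changed by 1 on the log2 scale. The fit found 154 of them for doxycycline, with 6 false calls, and 134 for origin, with 8 false calls. Smaller changes, such as those of most members called for doxycycline, were not simulated. Start sites came from a promoter set, with 1 start site used per gene. Gene positions came from RefSeq (GRCh38.p14), sequence from hg38 and introns from GENCODE. Sums were made in Python 3.11.15 with pandas 2.3.3 and numpy 2.4.6.

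The members and the other lists were chosen with earlier results of these data known. Described singly are FEZF1, EWSR1, every member called for doxycycline and the members not tested. The 5 highest and 5 lowest in TPM are too, as are the 5 with the largest and the 5 with the smallest range over origins. Up to 3 called genes of each other list with the smallest p-value were added. FLI1 was also named in the rule, but too few of its reads were matched to describe it. The rule set a limit of 30 such genes, which was passed. Remaining members and the markers are given with values for completeness.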

Additional observations from a re-analysis of the deposited data

Results flagged for a closer look

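In 4 of 74 groups of 4 cultures (the CPM of the 35 tested members and of FEZF1, and the assigned reads, in controls and with doxycycline) 1 culture lay apart from the other 3 by Dixon's criterion at its 95% limit, where chance gives 3.7. LIPI was highest in the clone 6 control, at 302 CPM, against 192 to 203 CPM in the other controls, and also in clone 6 with doxycycline, at 251 CPM, against 156 to 166 CPM. FCGRT was lowest in clone 3 with doxycycline, at 237 CPM, against 374 to 399 CPM. CCK was highest in clone 5 with doxycycline, at 154 CPM, against 3.08 to 23.7 CPM.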

How the results depend on the processing

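The count of genes called for doxycycline (1219) was 1 with no replicate block, 1920 by DESeq2 with origin, 231 by DESeq2 with no replicate block, 493 with curated transcripts alone and 175 to 699 when 1 pair of cultures was left out. The count of members (15) was 0, 20, 2, 6 and 2 to 8 in the same settings, lowest without clone 5 or clone 6. The cultures pair by origin, and the block decides these calls. For origin, the 6298 genes became 4053 with curated transcripts alone, 2840 with no treatment term and 2964 to 5299 when 1 pair was left out, and the 27 members became 12 with no treatment term and 20 to 24 when 1 pair was left out. The median log2 fold change of the members was 0.12 to 0.21 when 1 pair was left out, the highest without clone 3. The sign turned for PDGFC with curated transcripts alone (-0.0334). When 1 pair was left out, TERT ran from -0.105 to 0.0559 (positive without the polyclonal population, at 0.0397, or clone 5), PDGFC from -0.0570 (without the polyclonal population) to 0.270, and EWSR1 from -0.0897 to 0.0291 (without clone 3). None of the 3 was called in any of these. The causes were not tested. DESeq2's size factors gave 499 genes higher and 660 lower, against 595 and 624, and the other filters and the length offset kept each count within 1.5 times. Genes under about 10 counts were not tested, and changes in them were not detectable at this depth.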
